A study of Mus musculus with 6 samples.

Results

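The caspases, the BCL2 family and the genes that regulate cell death beside them were described across RNA-seq libraries of mouse osteoblast cultures kept with or without verapamil. The members were picked by gene symbol, with earlier results of these data known. They are the numbered caspases, the BCL2-like and BH3-only genes, Birc2, Birc3, Birc6 and Xiap, the mitochondrial and apoptosome factors, Fas, Fasl, Fadd and Cflar, Gsdmd, Gsdme and Mlkl, and Trp53 with Mdm2. This gave 53 of the 17491 genes in the table. Verapamil, a blocker of L-type calcium channels, was used on 3 of the libraries, and 3 libraries are controls. Both groups came from wild-type mouse bone marrow mesenchymal stem cells of tibia and femur. Both were differentiated to day 7 in low-glucose DMEM with 15% serum, dexamethasone, 5 mM β-glycerophosphate and 50 µg/mL ascorbic acid, and the labels give neither the verapamil dose nor the time of exposure. Whether replicates of a group were grown separately or taken from different mice is not stated, so the p-values speak for the spread among these libraries, part or all of which may be technical.

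Apoptosis is carried out by caspases, proteases that lie dormant until an upstream signal activates them. In the mitochondrial route, BH3-only proteins sense damage or loss of survival signals and act on the BCL2 guardians and on BAX and BAK, which open the outer mitochondrial membrane and release cytochrome c to the apoptosome and caspase-9. In the receptor route, FAS and its adaptor FADD activate caspase-8, which the caspase-like protein CFLAR restrains. Inflammatory caspases, gasdermins and MLKL instead break the plasma membrane, a form of death best known in macrophages. Osteoblast death by apoptosis is part of normal bone turnover.

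Gene levels are read counts scaled to library size and composition (CPM), and a log2 fold change is that of verapamil over control with its standard error (SE). Calls rest on edgeR's quasi-likelihood test with a threshold of 0.05 on the p-value after Benjamini-Hochberg adjustment over 13366 tested genes. Library totals ran from 18.2 M to 21.7 M reads. Verapamil libraries resembled each other more, with a biological coefficient of variation of 4.46%, against 12.4% in the controls. The controls also differed in steps from each other in hypoxia response genes. A list of 20 such genes summed to 7049 CPM in control 2, 4599 CPM in control 1 and 2860 CPM in control 3. The verapamil libraries were at 2233, 1954 and 2128 CPM. Of these 20 genes 14 were lower with verapamil and Ddit4 was higher (75%, beside 31.7% of all genes). Lower genes numbered 7, 5 and 6 without verapamil 1, 2 or 3, between 11 and 15 without 1 control, and 8 with no filter. Ddit4 lost its call when any 1 verapamil library or control 1 was left out (adjusted p of up to 0.147). So it did with the replicate number as a block (adjusted p = 0.0735).

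The labelled cell type was checked against markers. All 13 osteoblast markers were detected, and 12 of them were lower with verapamil (92.3%, beside 31.7% of all genes called). Their summed levels were 17898 to 20350 CPM with verapamil, against 42045 to 51804 CPM in the controls. Macrophage markers were present as well. Of 20, 15 were higher with verapamil and Cx3cr1 was lower (80%, beside 31.7% of all genes). The macrophage sums were 18558 to 20823 CPM with verapamil and 10544 to 13064 CPM in the controls. None of either list was at 0 in every library. The osteoblast cultures thus held RNA of macrophage marker genes in both groups, and in bulk RNA fewer cells of a type and less RNA per cell cannot be told apart.

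Death genes were higher more often than lower with verapamil. Of the 53 members 44 passed the filter on low counts, 19 were called higher and 4 lower, and 21 did not pass the test. The called share was 52.3% of the tested members, beside 31.7% of all genes tested, which divided into 15.4% higher and 16.3% lower. Groups did not overlap in 32 of the 44 members, 28 higher and 4 lower, beside 49.6% of all genes (25.2% higher and 24.4% lower). The median log2 fold change was 0.19 over the tested members and 0.01 over all genes. Changes were small: 6 of the 23 called members moved by at least 0.5 on the log2 scale and 3 by at least 1. With scaling by totals alone, 25 members were called higher and 2 lower, and the share of higher calls among all called genes was 63.7% in place of 48.5%. Leaving out verapamil 1, 2 or 3 left 11, 9 and 16 members higher and 2, 3 and 2 lower. Without control 1 the counts were 12 higher and 2 lower. Without control 2 they were 20 higher and 6 lower, and without control 3 they were 20 and 5. Calls that held with any 1 library left out included those of Casp1, Casp12, Bcl2l1, Bcl2l2, Bcl2a1b, Bcl2a1d, Bok and Fas.

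**Figure D1:**
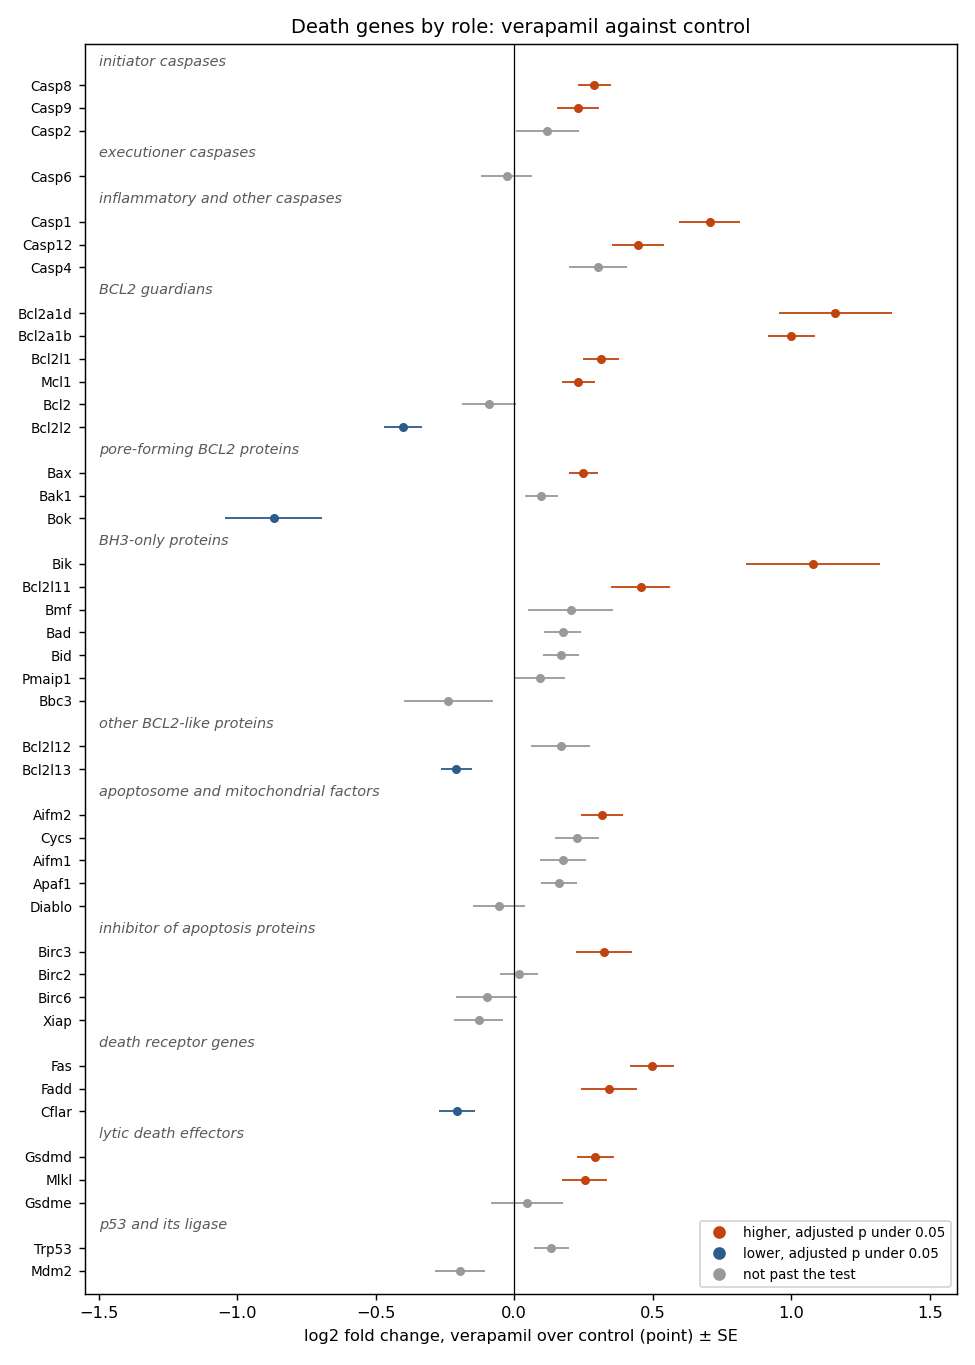
Log2 fold change of verapamil over control (x axis) for 42 death genes, grouped by role, as points with bars of 1 SE. Points right of 0 are higher with verapamil, with Bcl2a1d farthest right and Bok farthest left.

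Casp6, an executioner caspase that cuts nuclear lamins, averaged 21.6 ± 1.30 CPM with verapamil and 21.98 ± 2.21 CPM in the controls (SD, n = 3 each), with overlapping groups and no call (log2 fold change -0.03, adjusted p = 0.849).

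Of the initiator caspases, 2 of 3 were higher (66.7% called, beside 31.7% of all genes). Here and below, roles hold few genes, and their shares were not tested against that of all genes. Casp8, the initiator used by death receptors and also a brake on necroptosis, was at 57.8, 59.0 and 55.5 CPM in the verapamil libraries, against 47.9, 44.4 and 48.6 CPM in the control libraries. All verapamil values exceeded all control values, and Casp8 rose by 0.29 ± 0.06 on the log2 scale (adjusted p = 0.00889), short of the threshold without verapamil 2 (adjusted p = 0.0519). Casp9, the initiator activated on the apoptosome, was at 33.0, 34.2 and 31.0 CPM with verapamil and 26.1, 27.4 and 30.1 CPM in the controls. The lowest verapamil value stood just above the highest control, and the rise of 0.23 ± 0.08 had an adjusted p of 0.0472. That call was lost when any 1 verapamil library, control 1 or control 2 was left out (adjusted p between 0.0547 and 0.176). Other losses came with no filter (adjusted p = 0.0514), in DESeq2 (adjusted p = 0.0865) and with the replicate number as a block (adjusted p = 0.107). Casp9 also overlaps exons of Cela2a and Ctrc on the opposite strand, and the strand setting of the counts is not given. Casp2, the initiator activated by the PIDDosome, averaged 12.4 ± 1.602 CPM with verapamil and 11.4 ± 0.639 CPM in the controls and was not called (log2 fold change 0.12, adjusted p = 0.457).

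The inflammatory caspases lie side by side on chromosome 9. Casp1, which matures interleukin-1β and interleukin-18 and cuts gasdermin D (chromosome 9, 5298517 to 5307281 in GRCm38), was at 50.1, 51.8 and 50.0 CPM in the verapamil libraries, against 31.2, 25.7 and 36.1 CPM in the control libraries. The verapamil libraries differed by under 2 CPM while the controls ranged widely, with control 2 lowest, and the groups did not overlap. Casp1 rose 1.63-fold, by 0.71 ± 0.11 (adjusted p = 0.00264), with adjusted p values of 1.54e-04 to 0.0196 when any 1 library was left out. Casp12, a caspase linked in mouse to the endoplasmic reticulum (chromosome 9, 5345442 to 5373034), was at 57.4, 60.5 and 59.2 CPM with verapamil and 42.1, 38.0 and 49.7 CPM in the controls. It was the most abundant inflammatory caspase in CPM, its groups did not overlap, and it rose by 0.45 ± 0.09 (adjusted p = 0.00893). Casp4, the mouse caspase-11 that binds bacterial lipopolysaccharide in the cytosol, lies between them (chromosome 9, 5308849 to 5336791). Its 14.9, 14.8 and 14.6 CPM with verapamil and 13.1, 10.2 and 12.5 CPM in the controls did not overlap either, but the difference of 0.30 ± 0.11 had an adjusted p of 0.0589 and among the alternatives passed the test only with scaling by totals alone (adjusted p = 0.0428). Casp14, a caspase of skin, had 0 or 1 reads in each library and was not tested.

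The macrophage marker sum moved with these caspases, and its part in their rise was not tested. Among the controls the macrophage sum was lowest in control 2 and highest in control 3, and the hypoxia sum had the reverse order. Lyz2 alone was at 5919, 4360 and 6329 CPM in controls 1, 2 and 3. The order of the macrophage sum thus rests on this 1 gene, and without it control 2 is not the lowest. The next most abundant markers, Mrc1, C1qb, C1qc and C1qa, were lowest in control 1, while Cd68 and some others were lowest in control 2. Of the called members named here, Casp1, Casp12, Casp8, Bik, Birc3 and Fas followed the order of the macrophage sum across the controls. The hypoxia order was followed by the called members Bcl2l1, Bcl2l2, Bax, Bok, Gsdmd and Mlkl. Of these, Bcl2l2 and Bok were lower with verapamil, as the hypoxia sum was. Bcl2l1, Bax, Gsdmd and Mlkl were higher. With 3 controls few orders are possible, so genes can share an order without a link, and no test was run on these orders. How many of all genes share either order was not counted.

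**Figure D2:**
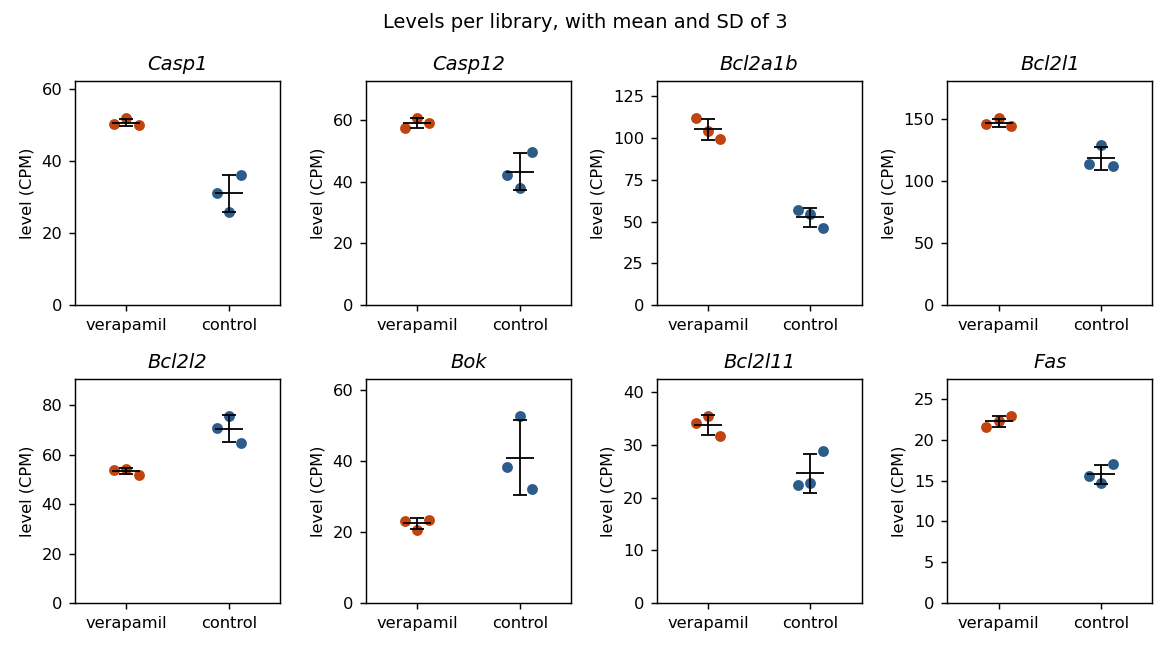
Level in CPM (y axis, from 0) of 8 death genes in each library, verapamil left and control right, with the mean and SD of 3 as bars. Groups do not overlap in any of the 8 panels; Bcl2l2 and Bok are lower with verapamil and the other genes are higher.

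The BCL2 guardians hold BAX, BAK and the BH3-only proteins in check. Of their 6 tested members 4 were higher and 1 was lower (83.3% called, beside 31.7% of all genes). The gene with the lowest p of all 44 members was Bcl2a1b, a mouse copy of the guardian A1 or BFL1, known as an NF-κB target in blood cells (chromosome 9, 89199273 to 89207838). It was at 112, 104 and 99.7 CPM in the verapamil libraries, against 57.0, 54.6 and 46.2 CPM in the control libraries. Every verapamil value was well above every control. Bcl2a1b rose 2.001-fold, by 1.00 ± 0.09 (adjusted p = 2.81e-04), and ranked 82 by p among all genes tested. Its adjusted p stayed at or below 0.00414 with any 1 library left out. Bcl2a1d, a second copy (chromosome 9, 88723288 to 88731850), was far less abundant at 3.83, 5.37 and 3.77 CPM with verapamil and 2.25, 1.66 and 1.88 CPM in the controls. Even so no control reached a verapamil library, and it rose by 1.16 ± 0.20 (adjusted p = 0.0044), the largest log2 fold change of the tested members. A stricter filter, 5 CPM in 3 libraries, removed it before testing.

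Mouse chromosome 9 carries 4 Bcl2a1 copies, and their likeness limits what can be said of each. Bcl2a1b and Bcl2a1d transcripts were 99.1% identical over 817 aligned bases, with 7 mismatches, and Bcl2a1b and Bcl2a1c were 95.3% identical. The following 60 coding bases, taken from the reference transcripts and starting at base 514 of Bcl2a1b and base 558 of Bcl2a1d, show how little tells the copies apart. Capitals mark the 8 columns where any copy differs.
Bcl2a1b: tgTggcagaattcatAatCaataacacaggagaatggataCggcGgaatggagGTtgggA
Bcl2a1d: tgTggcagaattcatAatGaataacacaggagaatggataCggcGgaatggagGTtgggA
Bcl2a1a: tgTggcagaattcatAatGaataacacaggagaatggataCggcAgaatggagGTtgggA
Bcl2a1c: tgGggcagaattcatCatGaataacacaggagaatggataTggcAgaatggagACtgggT
In Bcl2a1b 57.6% of all 50-base words occur in another copy, and in Bcl2a1d 79.5%, so the division of reads between copies is uncertain. The estimated counts gave Bcl2a1a 6.17 reads in verapamil 1 and 0 in the other 5 libraries. Bcl2a1c had 15.0, 25.9 and 9.72 reads with verapamil and 5.32, 5.46 and 6.58 reads in the controls, and neither copy passed the filter. Exons of Bcl2a1b also overlap Gm29094 on the same strand. Summed over the 4 copies, which does not depend on the division among them, the level was 117, 111 and 104 CPM with verapamil and 59.6, 56.6 and 48.4 CPM in the controls. The sum was 2.01 times as high with verapamil as in control.

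The promoters of the Bcl2a1 copies are also alike: those of Bcl2a1b and Bcl2a1d matched at 247 of 250 aligned bases. They are shown because both genes rose together. In each, capitals mark an AP-1 match (TGANTCA) and, after it, a match to the PU.1 word GAGGAAGT, searched on both strands of the 300 bases around the RefSeq start in GRCm38.p6.
Bcl2a1b (chr9:89199023-89199322, plus strand): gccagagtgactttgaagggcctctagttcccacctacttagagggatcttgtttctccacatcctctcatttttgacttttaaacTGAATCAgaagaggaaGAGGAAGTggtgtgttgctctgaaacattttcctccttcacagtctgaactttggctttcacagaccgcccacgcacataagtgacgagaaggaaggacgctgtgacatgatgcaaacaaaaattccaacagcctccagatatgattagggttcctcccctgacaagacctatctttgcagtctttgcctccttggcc
Bcl2a1d (chr9:88731801-88732100, minus strand): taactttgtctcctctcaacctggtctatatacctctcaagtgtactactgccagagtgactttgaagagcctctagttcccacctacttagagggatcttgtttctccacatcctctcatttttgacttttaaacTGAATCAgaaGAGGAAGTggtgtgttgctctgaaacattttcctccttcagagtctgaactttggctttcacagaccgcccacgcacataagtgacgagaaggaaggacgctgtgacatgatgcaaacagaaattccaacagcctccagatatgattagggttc
The AP-1 match lay at -164 to -158 in Bcl2a1b and at -114 to -108 in Bcl2a1d, where RefSeq sets the start at another base of the shared sequence. Of 32851 promoters in the reference table, 7.81% hold the AP-1 word and 3.2% the PU.1 word. Of the 60 promoter entries of 47 matched members, 5 hold the AP-1 word and 7 the PU.1 word, and 3 and 4 of these belong to Bcl2a1 copies. A match is a description of letters, not a binding site.

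Mcl1, a short-lived guardian needed by many cell types, was the most abundant guardian at 479.6, 511 and 495 CPM in the verapamil libraries, against 427, 426 and 414 CPM in the control libraries. The lowest verapamil library lay above the highest control, and Mcl1 rose by 0.23 ± 0.06 (adjusted p = 0.0204). That call was lost when any 1 verapamil library or control 1 was left out (adjusted p between 0.0581 and 0.104). The replicate block removed it too (adjusted p = 0.0944). Bcl2l1, which encodes BCL-XL, was at 146, 150.3 and 144 CPM in the verapamil libraries, against 114, 129 and 112 CPM in the control libraries. Control 2 was the highest control and still below each verapamil library, and Bcl2l1 rose by 0.31 ± 0.07 (adjusted p = 0.00875). Bcl2l2, which encodes BCL-W, moved the other way at 54.0, 54.3 and 51.8 CPM with verapamil and 71.0, 75.7 and 64.9 CPM in the controls. Each control exceeded each verapamil library, and Bcl2l2 fell by 0.40 ± 0.07 on the log2 scale (adjusted p = 0.00376). Its exons overlap those of Gm20521 on the same strand. Bcl2, the founding guardian, averaged 20.2 ± 0.203 CPM with verapamil and 21.5 ± 2.75 CPM in the controls, with overlapping groups and no call (log2 fold change -0.09, adjusted p = 0.511). Bcl2l10, a guardian of the egg cell, had 1 read in 1 library.

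The pore-forming proteins split. Bax, which moves to mitochondria and opens their outer membrane, was at 138, 135 and 143 CPM in the verapamil libraries, against 115, 121 and 114 CPM in the control libraries. No control reached a verapamil library, and Bax rose by 0.25 ± 0.05 (adjusted p = 0.00933), just missing the threshold without verapamil 3 (adjusted p = 0.0505). Bok, a BAX-like protein that acts apart from the guardians (chromosome 1, 93685575 to 93695770), was at 23.2, 20.6 and 23.5 CPM in the verapamil libraries, against 38.3, 52.7 and 32.1 CPM in the control libraries. The verapamil libraries lay together below all controls, among which control 2 was far above the others. Bok fell by 0.87 ± 0.18 on the log2 scale (adjusted p = 0.0102), the largest fall of the tested members, and its adjusted p was 4.72e-04 to 0.0450 with any 1 library left out. The order of the 3 controls in Bok was that of the hypoxia sum, whose part in the fall was not tested. Bak1, the resident mitochondrial partner of BAX, averaged 63.9 ± 2.73 CPM with verapamil and 59.7 ± 2.20 CPM in the controls and was not called (log2 fold change 0.10, adjusted p = 0.239), although its groups did not overlap. Exons of Bax overlap Gm45808 on the same strand, and those of Bak1 overlap Ggnbp1 on the opposite strand.

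Promoters of Casp1 and Bok are shown for comparison with those above. Capitals in Casp1 mark CACGTG, where the hypoxia response core ACGTG matches on both strands at overlapping bases from -137 to -132.
Casp1 (chr9:5298267-5298566, plus strand): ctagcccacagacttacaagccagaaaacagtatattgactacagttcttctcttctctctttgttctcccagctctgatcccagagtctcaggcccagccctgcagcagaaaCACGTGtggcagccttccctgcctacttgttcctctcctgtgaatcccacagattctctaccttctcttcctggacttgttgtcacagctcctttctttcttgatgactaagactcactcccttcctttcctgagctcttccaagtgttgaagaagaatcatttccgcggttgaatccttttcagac
Bok (chr1:93685325-93685624, plus strand): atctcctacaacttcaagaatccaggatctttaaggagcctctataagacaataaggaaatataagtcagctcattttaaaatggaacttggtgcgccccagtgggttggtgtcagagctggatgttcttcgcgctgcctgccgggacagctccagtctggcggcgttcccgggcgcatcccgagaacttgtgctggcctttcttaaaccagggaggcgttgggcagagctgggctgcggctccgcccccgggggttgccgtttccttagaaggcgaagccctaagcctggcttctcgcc
The core ACGTG occurs in 19.6% of all promoters and in 12 of the 60 member entries. In Bok no match to any of the 8 words searched was found, which says only that these letters are not in this window. The other words were FOXO (GTAAACA), CRE (TGACGTCA), the interferon response word, the NF-κB word and the p53 half-site. In this order they occur in 3.65%, 1.79%, 3.44%, 4.51% and 8.36% of all promoters. They occur in 5, 2, 1, 7 and 6 of the 60 member entries, and these shares were not tested. The NF-κB word was not found in the Bcl2a1b promoter.

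BH3-only proteins, the sensors that trigger the mitochondrial route, had 2 of 7 tested members higher (28.6% called, beside 31.7% of all genes). Bcl2l11, which encodes BIM and responds to loss of growth factors (chromosome 2, 128126038 to 128162547), was at 34.2, 35.5 and 31.8 CPM in the verapamil libraries, against 22.3, 22.7 and 28.8 CPM in the control libraries. Control 3 came nearest to the verapamil libraries without reaching them. Bcl2l11 rose by 0.46 ± 0.11 (adjusted p = 0.0131), and lost the call without verapamil 1, verapamil 2 or control 1 (adjusted p between 0.0579 and 0.0619). Bik, a BH3-only protein of the endoplasmic reticulum, was scarce at 1.49, 1.58 and 1.26 CPM with verapamil and 0.658, 0.588 and 0.781 CPM in the controls. All verapamil values were above all controls, and Bik rose by 1.08 ± 0.24 (adjusted p = 0.0114), a call lost without verapamil 2 (adjusted p = 0.0562), and the 5 CPM filter removed it before testing.

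The other BH3-only genes did not pass the test. Pmaip1, which encodes the p53 target NOXA and was the most abundant of them, was at 84.8, 78.4 and 89.7 CPM in the verapamil libraries, against 86.9, 69.4 and 80.5 CPM in the control libraries, with overlapping groups (log2 fold change 0.09, adjusted p = 0.461). Bbc3, which encodes the p53 target PUMA, was at 13.4, 12.04 and 16.4 CPM with verapamil and 13.8, 19.98 and 15.7 CPM in the controls, also overlapping (log2 fold change -0.24, adjusted p = 0.292). Bmf, a sensor tied to the cytoskeleton, averaged 9.95 ± 0.831 CPM with verapamil and 8.61 ± 1.80 CPM in the controls (log2 fold change 0.20, adjusted p = 0.345). Bid, which caspase-8 cuts to join both routes, averaged 52.9 ± 2.88 CPM with verapamil and 47.1 ± 2.09 CPM in the controls (log2 fold change 0.17, adjusted p = 0.0821), and Bad, held inactive by survival kinases, 38.5 ± 0.965 CPM with verapamil and 34.1 ± 2.22 CPM in the controls (log2 fold change 0.17, adjusted p = 0.0786). For Bid and Bad the groups did not overlap, and both passed when control 2 was left out (adjusted p = 0.0441 and 0.0250) or with scaling by totals alone. Hrk, a sensor of neurons, had 1.01 reads in 1 library.

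Of the remaining BCL2-like genes, Bcl2l13, a mitochondrial protein known as a mitophagy receptor, was at 49.3, 50.3 and 48.6 CPM with verapamil and 59.4, 55.4 and 56.6 CPM in the controls. Each control was higher, and Bcl2l13 fell by 0.21 ± 0.06 on the log2 scale (adjusted p = 0.0226). The call was lost when any 1 verapamil library or control 1 was left out (adjusted p between 0.0702 and 0.0876). Scaling by totals alone (adjusted p = 0.161) and the replicate block (adjusted p = 0.0809) lost it as well. Bcl2l13 and Bid overlap in their exons on opposite strands. Bcl2l12, which overlaps Irf3, averaged 7.13 ± 0.479 CPM with verapamil and 6.34 ± 0.310 CPM in the controls and was not called (log2 fold change 0.17, adjusted p = 0.269). Bcl2l14 and Bcl2l15 had at most 2 and 3.87 reads in a library and were not tested.

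**Figure D3:**
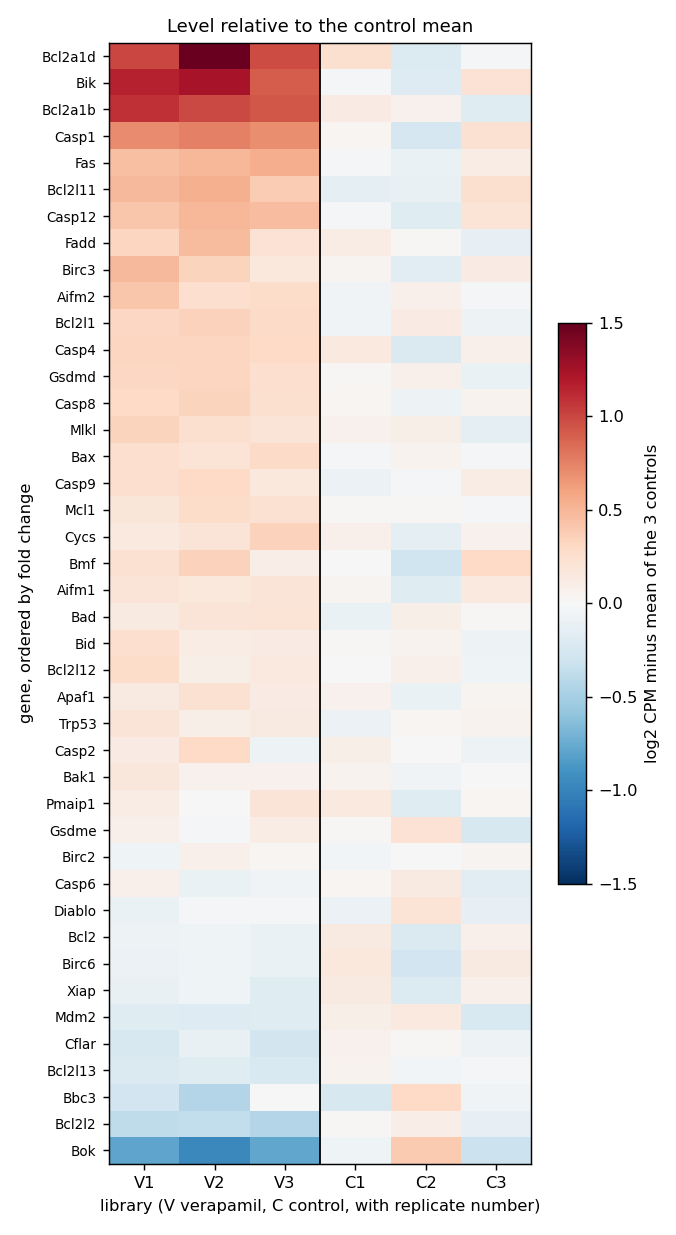
Log2 CPM minus the mean of the 3 controls (colour) for 42 death genes (rows, ordered by fold change) in the verapamil (V1 to V3) and control (C1 to C3) libraries. The verapamil columns resemble each other, and the Bok row shows the largest fall, with control 2 above the other controls.

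Of 5 tested apoptosome and mitochondrial factors, 1 was higher (20% called, beside 31.7% of all genes). Aifm2, known as the ferroptosis suppressor FSP1, was at 24.8, 22.1 and 22.4 CPM with verapamil and 17.8, 19.5 and 18.3 CPM in the controls. The verapamil libraries were all higher, and Aifm2 rose by 0.32 ± 0.08 (adjusted p = 0.0164). This call was lost without verapamil 1 or control 1 (adjusted p = 0.0765 and 0.0634) and with the replicate block (adjusted p = 0.0512). Exons of Aifm2 overlap H2afy2 on the opposite strand. Cycs, cytochrome c, was at 89.9, 92.7 and 104 CPM in the verapamil libraries, against 85.6, 73.8 and 85.1 CPM in the control libraries. The groups came close without overlapping, and the difference did not pass (log2 fold change 0.23 ± 0.08, adjusted p = 0.0592) except without control 3 (adjusted p = 0.0451) or with upper-quartile or totals scaling (adjusted p = 0.0484 and 0.0397). Apaf1, the scaffold of the apoptosome, averaged 58.6 ± 2.44 CPM with verapamil and 52.4 ± 3.12 CPM in the controls (log2 fold change 0.16, adjusted p = 0.0938). Aifm1, the flavoprotein that leaves mitochondria in caspase-free death, averaged 45.6 ± 0.626 CPM with verapamil and 40.4 ± 4.47 CPM in the controls (log2 fold change 0.18, adjusted p = 0.139), and passed without control 3 (adjusted p = 0.0375). Diablo, which frees caspases from their inhibitors, averaged 23.7 ± 0.767 CPM with verapamil and 24.7 ± 3.13 CPM in the controls (log2 fold change -0.06, adjusted p = 0.689). Aifm3 had at most 3 reads in a library.

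Of the 4 inhibitor of apoptosis genes, 1 was higher (25% called, beside 31.7% of all genes). Birc3, which encodes the ubiquitin ligase cIAP2 and is an NF-κB target, was at 43.4, 39.3 and 34.5 CPM in the verapamil libraries, against 32.0, 27.8 and 33.7 CPM in the control libraries. The lowest verapamil library stood just above the highest control. It rose by 0.32 ± 0.10 (adjusted p = 0.0421) and lost the call without verapamil 1, verapamil 2, control 1 or control 2 (adjusted p between 0.0649 and 0.167). Birc3 also lost it with the replicate block (adjusted p = 0.0680). Its neighbour Birc2, which encodes cIAP1, averaged 24.3 ± 1.17 CPM with verapamil and 24.0 ± 0.686 CPM in the controls and was not called (log2 fold change 0.02, adjusted p = 0.867). Birc6, a giant ubiquitin ligase that restrains caspases, was the most abundant of the 4 in CPM at 151, 153 and 150.1 CPM with verapamil and 179, 131 and 176 CPM in the controls. Control 2 lay below the verapamil libraries and controls 1 and 3 above them, and the difference did not pass (log2 fold change -0.10, adjusted p = 0.527). Xiap, a direct inhibitor of caspases, had the same pattern at 98.8, 102 and 93.6 CPM with verapamil and 117, 92.2 and 112 CPM in the controls (log2 fold change -0.13, adjusted p = 0.307). Without control 2 both passed as lower, Birc6 at -0.24 (adjusted p = 0.00285) and Xiap at -0.23 (adjusted p = 0.00680).

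All 3 tested genes of the death receptor step were called, beside 31.7% of all genes. Fas, the receptor (chromosome 19, 34290647 to 34327775), was at 21.6, 22.3 and 22.9 CPM in the verapamil libraries, against 15.6, 14.7 and 17.0 CPM in the control libraries. The highest control was well below the lowest verapamil library. Fas rose 1.41-fold, by 0.50 ± 0.08 (adjusted p = 0.00286), and kept an adjusted p of at most 0.0193 with any 1 library left out. Fadd, its adaptor, was at 16.6, 18.5 and 15.4 CPM with verapamil and 14.3, 13.4 and 12.2 CPM in the controls. Its groups did not overlap, and it rose by 0.34 ± 0.10 (adjusted p = 0.0321). The Fadd call was lost without verapamil 1, verapamil 2, control 1 or control 3 (adjusted p between 0.0501 and 0.135). It was also lost with the replicate block (adjusted p = 0.0511), and the antisense gene Faddos overlaps Fadd. Cflar, the restraint on caspase-8, was at 109, 119 and 106 CPM in the verapamil libraries, against 134, 129.7 and 122 CPM in the control libraries. Each control exceeded each verapamil library. Cflar fell by 0.21 ± 0.06 on the log2 scale (adjusted p = 0.0395), and lost the call without verapamil 1, verapamil 3 or control 1 (adjusted p between 0.127 and 0.143). Scaling by totals alone (adjusted p = 0.169) and the replicate block (adjusted p = 0.0756) lost it too. The ligand gene Fasl had 1 read in 1 control library and was not tested.

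Casp8 and Cflar are neighbours on chromosome 1 and moved in opposite directions. Per kilobase of transcript, Casp8 was 1.35, 1.26 and 1.33 times the level of Cflar in the verapamil libraries, against 0.908, 0.870 and 1.02 times in the controls. The ratio was above 1 in every verapamil library and in 1 of the 3 controls. Its means were 1.31 ± 0.046 with verapamil and 0.931 ± 0.0753 in control (SD, n = 3 each). The lengths used, those of the longest protein-coding transcripts, were 2.585 kb for Casp8 and 6.572 kb for Cflar. In CPM, without scaling to length, Cflar was above Casp8 in every library. Where the ratio stands against 1 thus depends on these lengths. The ratio of Bcl2a1b to Mcl1 per kilobase was 0.891 ± 0.0741 with verapamil and 0.521 ± 0.0479 in control. The ratio of Bax to Bcl2 was 44.9 ± 1.71 with verapamil and 36.0 ± 6.19 in control, where control 2 at 43.2 nearly reached the lowest verapamil library at 43.3. The ratio of Bcl2l11 to Bcl2l1 overlapped between groups, at 0.118 ± 0.00448 with verapamil and 0.107 ± 0.0216 in control. There control 3, at 0.132, was above each verapamil library. No test was run on these ratios.

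**Figure D4:**
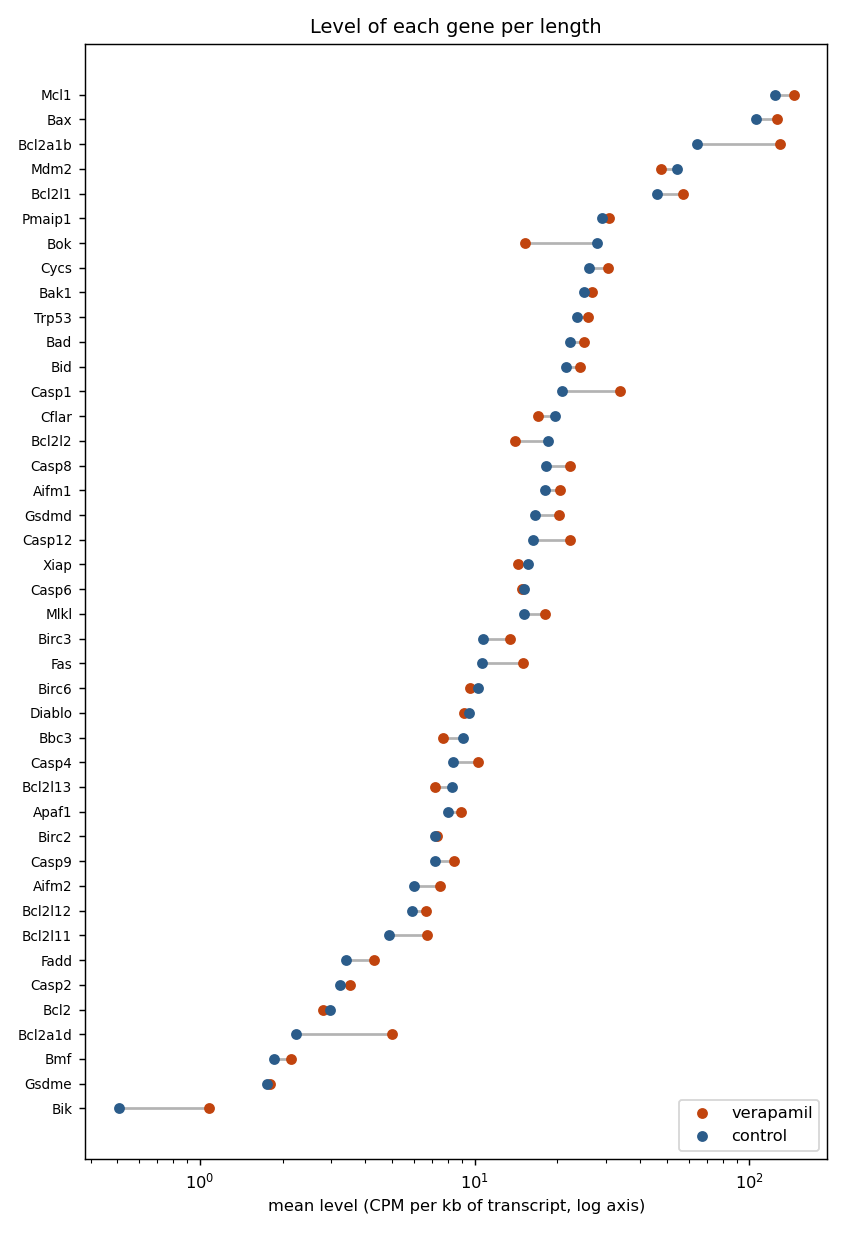
Mean level per kilobase of transcript (x axis, CPM per kb, log axis) of 42 death genes with verapamil and in control, ordered by the control level. Mcl1, Bax and Bcl2a1b are highest in both groups, and Bik is lowest.

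Per kilobase, Mcl1 had the highest mean level, 145 CPM per kb with verapamil and 123.5 CPM per kb in control. With verapamil Bcl2a1b came next at 129 CPM per kb and then Bax at 126 CPM per kb, while in control Bax at 106 CPM per kb stood ahead of Bcl2a1b at 64.4 CPM per kb. Bcl2l1 was at 57.1 CPM per kb with verapamil and 46.0 in control, and Bcl2 at 2.80 CPM per kb with verapamil and 2.98 in control. Among caspases Casp1 was highest per kilobase in both groups, at 33.8 CPM per kb with verapamil and 20.7 in control. Casp12 was at 22.3 CPM per kb with verapamil and 16.3 in control, and Casp8 at 22.2 CPM per kb with verapamil and 18.2 in control. With verapamil, Casp12 and Casp8 differed by less than the spread between libraries.

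Lytic death genes had 2 of 3 members higher (66.7% called, beside 31.7% of all genes). Gsdmd, the pore protein cut by caspase-1 and caspase-11, was at 36.7, 37.1 and 35.4 CPM with verapamil and 30.1, 31.4 and 27.7 CPM in the controls. Its groups did not overlap and it rose by 0.29 ± 0.07 (adjusted p = 0.0127), a call lost without verapamil 1 or verapamil 2 (adjusted p = 0.0591 and 0.0610). Mlkl, the executioner of necroptosis, was at 38.0, 35.7 and 34.4 CPM with verapamil and 31.5, 32.0 and 27.1 CPM in the controls. Its groups did not overlap either and it rose by 0.25 ± 0.08 (adjusted p = 0.0426). When 1 library was left out it kept the call only without control 2 (otherwise adjusted p between 0.0759 and 0.161). Mlkl also lost it in DESeq2 (adjusted p = 0.0672) and with the replicate block (adjusted p = 0.0568). Gsdme, another gasdermin, averaged 7.91 ± 0.380 CPM with verapamil and 7.68 ± 1.195 CPM in the controls and was not called (log2 fold change 0.05, adjusted p = 0.821).

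Neither Trp53, which encodes p53, nor Mdm2, the ligase that removes it, passed the test. Trp53 averaged 48.2 ± 1.73 CPM with verapamil and 44.0 ± 2.30 CPM in the controls, without overlap of the groups (log2 fold change 0.13, adjusted p = 0.14), and passed with scaling by totals alone (adjusted p = 0.0450). Mdm2, itself a p53 target, was at 149.9, 149 and 150.0 CPM in the verapamil libraries, against 181, 188 and 146 CPM in the control libraries. Control 3 lay just below the verapamil libraries and the other controls far above them (log2 fold change -0.20, adjusted p = 0.137). Without control 3 it passed as lower (log2 fold change -0.30, adjusted p = 0.00286).

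Genes of connected pathways were counted in lists outside the members. Of 22 tested p53 targets 7 were higher and 1 was lower (36.4%, beside 31.7% of all genes), with a median log2 fold change of 0.18, beside 0.01 over all genes. Fdxr, a mitochondrial ferredoxin reductase, averaged 41.0 ± 0.3501 CPM with verapamil and 27.7 ± 1.89 CPM in the controls (log2 fold change 0.57 ± 0.07, adjusted p = 7.98e-04), and Plk2, a polo-like kinase, 50.0 ± 2.06 CPM with verapamil and 38.4 ± 0.643 CPM in the controls (log2 fold change 0.38 ± 0.06, adjusted p = 0.0024). Trp53inp1 and Ccng1 rose by 0.45 and 0.36, and Polk, a DNA polymerase, had a log2 fold change of -0.34. The calls of these 3 were lost when any 1 verapamil library was left out (adjusted p of at most 0.0833, 0.055 and 0.108), those of Trp53inp1 and Polk also without control 1 and that of Polk without control 2. The count of higher p53 targets was 2 when any 1 verapamil library was left out, 5 without control 1 and 8 without control 2 or 3. Cdkn1a, the cell cycle inhibitor p21 and a standard p53 target, averaged 526 ± 28.0 CPM with verapamil and 517 ± 34.9 CPM in the controls (log2 fold change 0.03, adjusted p = 0.816), with overlapping groups.

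Of 15 tested genes of death receptor signalling 4 were higher and none was lower (26.7%, beside 31.7% of all genes), with a median log2 fold change of 0.14. Tnfaip3, the NF-κB inhibitor A20, averaged 27.7 ± 1.31 CPM with verapamil and 18.1 ± 0.327 CPM in the controls and rose by 0.61 ± 0.07 (adjusted p = 6.33e-04). Tnfaip8l2 rose by 0.61 ± 0.08 (adjusted p = 0.00112), Tnfaip8 by 0.43 ± 0.06 (adjusted p = 0.00176) and Tnfrsf1b, the second TNF receptor, by 0.30 ± 0.05 (adjusted p = 0.00448). These 4 passed with any 1 library left out.

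The inflammasome genes assemble the platforms that activate caspase-1. Of 14 tested, 10 were higher and none was lower (71.4%, beside 31.7% of all genes), with a median log2 fold change of 0.61. Pycard, the adaptor ASC, was at 25.4, 26.9 and 24.9 CPM in the verapamil libraries, against 12.8, 12.5 and 15.3 CPM in the control libraries. All its verapamil values exceeded its control values, and it rose by 0.92 ± 0.09 (adjusted p = 4.59e-04). The receptor gene Nlrc4 rose by 0.94 ± 0.20 (adjusted p = 0.00939), and its partners Naip6 and Naip5, close paralogs whose reads may be divided between them, by 0.90 ± 0.11 and 0.86 ± 0.09 (adjusted p = 9.43e-04 and 5.58e-04). The count of higher inflammasome genes was 8 to 10 with any 1 library left out. As with Casp1, the macrophage sum moved the same way, and its part was not tested.

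Of 14 apoptosis substrates and nucleases 5 were higher and 2 lower (50%, beside 31.7% of all genes), with a median log2 fold change of 0.14. Panx1, a channel that caspases open, was at 21.9, 24.7 and 22.8 CPM in the verapamil libraries, against 9.53, 7.80 and 13.0 CPM in the control libraries, with no overlap. It rose by 1.18 ± 0.17 (adjusted p = 0.00194). Dnase2a, the lysosomal nuclease that digests engulfed DNA, rose by 0.56 ± 0.08 (adjusted p = 0.00213), Htra2, a mitochondrial protease, by 0.46 ± 0.09 (adjusted p = 0.00777), and Septin4 by 0.82 ± 0.25 (adjusted p = 0.0372), a call lost when any 1 verapamil library or control 1 was left out, with an adjusted p of up to 0.119. The 2 lower genes were Sptan1, a spectrin (log2 fold change -0.37 ± 0.07, adjusted p = 0.00471), and Rock1, a kinase of membrane blebbing (log2 fold change -0.34 ± 0.05, adjusted p = 0.00286). The count of higher genes was 3 when any 1 of those libraries was left out.

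Of 16 BNIP, BAG and related mitochondrial genes none was higher and 2 were lower (12.5%, beside 31.7% of all genes), with a median log2 fold change of -0.02. Bnip3, a mitophagy receptor and a standard hypoxia target, was at 83.8, 70.3 and 78.4 CPM in the verapamil libraries, against 298, 504 and 163 CPM in the control libraries. Control 2 was the highest and control 3 the lowest control, the order of the hypoxia sum, and no control overlapped with the verapamil libraries. Bnip3 fell by 2.05 ± 0.39 on the log2 scale (adjusted p = 0.00991). Bag2, a cochaperone, fell by 0.55 ± 0.13 on the log2 scale (adjusted p = 0.0164), and lost the call when any 1 verapamil library or control 1 was left out, with an adjusted p of up to 0.0643. Lower genes numbered 1 when any 1 of those libraries was left out, and 5 without control 3. Without control 2, 3 genes of the list were higher.

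**Figure D5:**
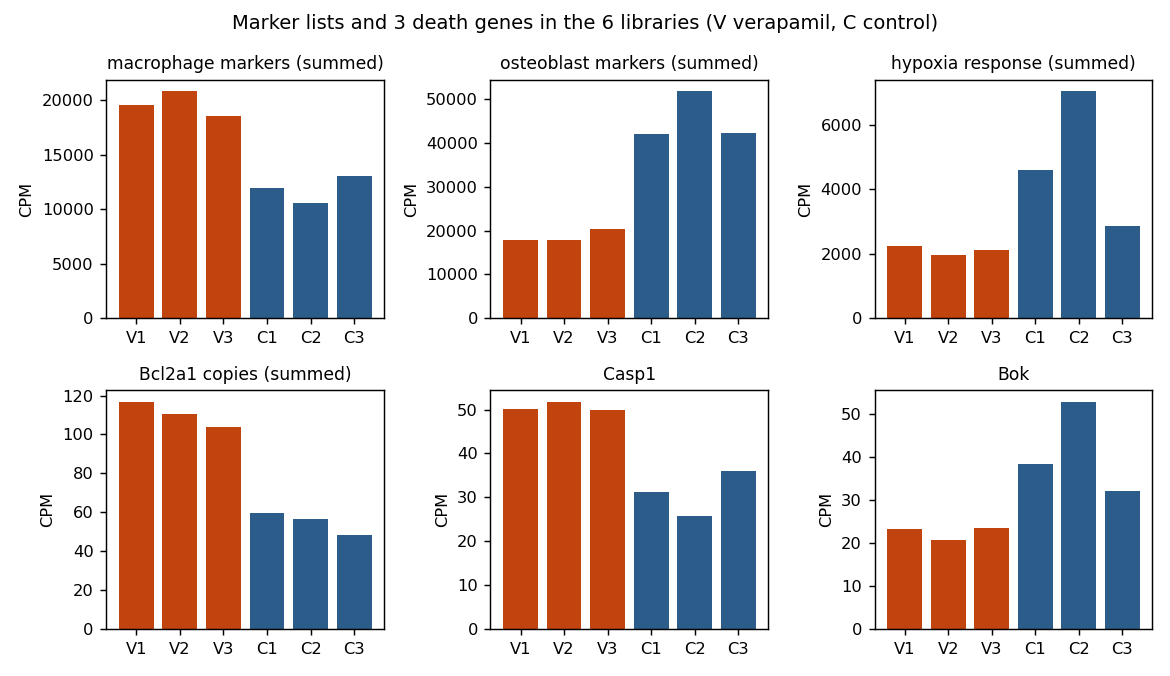
Summed CPM of macrophage, osteoblast and hypoxia response genes, and CPM of the 4 Bcl2a1 copies together, Casp1 and Bok (y axes, from 0), as 1 bar for each library (V1 to V3 verapamil, C1 to C3 control). Macrophage genes, Bcl2a1 and Casp1 are higher in each verapamil library than in any control, and osteoblast and hypoxia genes and Bok are lower.

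The summed macrophage level was 1.66 times as high with verapamil as in control, and the Bcl2a1 sum 2.01 times. Lyz2 made up a large part of the macrophage sum, with means of 11197 CPM with verapamil and 5536 CPM in control. Lyz2 alone rose 2.02-fold, and 4 of the 20 macrophage markers were not called. What part macrophage RNA had in the Bcl2a1 level was not tested. The order of the controls differed between these sums. The Bcl2a1 sum was lowest in control 3, where the macrophage sum was highest. Of the other marker lists, neutrophil genes had 2 of 3 tested members higher, Mmp8 and S100a8 (66.7%, beside 31.7% of all genes). Neutrophil sums were 12.2 to 16.1 CPM with verapamil and 5.05 to 5.30 CPM in control. S100a8 lost its call when any 1 library other than control 1 was left out (adjusted p of up to 0.159), which left 1 higher, as did DESeq2 (its size factors or its test), the replicate block, no filter and the 5 CPM filter. Lymphocyte genes had 1 of 2 higher, Il7r (50%, beside 31.7% of all genes), and 2 without verapamil 1, control 2 or control 3 or with no filter. Lymphocyte sums were 14.7 to 16.3 CPM with verapamil and 5.68 to 7.75 CPM in control. Of 8 endothelial genes, Pecam1, Tie1 and Cdh5 were lower and Vwf was higher (50%, beside 31.7% of all genes). The endothelial sums were 53.2 to 54.1 CPM with verapamil and 60.9 to 65.4 CPM in control, without overlap. Lower endothelial genes numbered 2 without verapamil 1 or 3, and Vwf lost its call without verapamil 2 or control 1 (adjusted p of up to 0.0779). Of 5 tested adipocyte genes, Fabp4 and Pparg were higher and Plin1 was lower (60%, beside 31.7% of all genes). The adipocyte sums of 618 to 772 CPM with verapamil and 445 to 625 CPM in control overlapped. Pparg lost its call when any 1 verapamil library was left out, and Plin1 when any 1 library other than control 2 was left out (adjusted p of up to 0.092 and 0.149). Plin1 also fell short with the replicate block (adjusted p = 0.0691). These 4 sums were far below that of the macrophage genes. Of 18 cell cycle genes 9 were higher and 1, Rrm2, was lower (55.6%, beside 31.7% of all genes). Higher genes numbered 2, 4 and 5 without verapamil 1, 2 or 3, 2, 11 and 17 without control 1, 2 or 3, and 15 in DESeq2. Rrm2 lost its call when any 1 verapamil library or control 1 was left out (adjusted p of up to 0.0812) and with the replicate block.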

How the data were processed

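Per the labels' protocols, total RNA was converted to sequencing libraries with a SMARTER kit. The authors deposited 1 table of estimated counts per gene and library, neither scaled to depth nor to length; 67.7% of its values are not whole. The build is GRCm38 (mm10), per the submitters' processing notes; no source used here gives the aligner, counting tool, annotation or strandedness.

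Estimated counts were rounded, filtered with filterByExpr (minimum count 10, minimum total 15; 4125 genes removed), scaled with TMM factors and compared between 3 verapamil and 3 control libraries. The test was the robust quasi-likelihood F test of edgeR 4.0.16 in R 4.3.3 with Benjamini-Hochberg adjustment over all 13366 genes, called at 0.05. The SE was derived from the F statistic (log2 fold change, without sign, divided by the root of F). Log2 CPM used a prior count of 2. Replicates of a group differed beyond sampling noise (chi-square per degree of freedom 3.49 to 6 for verapamil pairs and 12.1 to 47.8 for control pairs). Precision is that of 3 libraries per group at 18.2 M to 21.7 M reads.

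Transcript lengths, Bcl2a1 transcripts and exon overlaps came from GENCODE annotation and promoters from RefSeq, both on GRCm38. The length of each gene was that of its longest protein-coding transcript. For promoters, 47 of 53 members had a match. Members, lists and tests were chosen with earlier results of these data known. Results of 2 members are not reported here by name, though both stay in the fits and in counts over all members. The other 42 tested members are named. Values in all libraries are given for called members without overlap, the 20 largest changes and the most abundant member of each role. Pathway lists name up to 4 called members with the largest changes, and besides them genes called in the opposite direction to most. Other called list members are counted but not named. Bbc3, Xiap, Pycard, Panx1 and Bnip3 were given in full after their values were seen. Alternatives were other scalings (DESeq2 size factors, upper quartile, totals alone), no filter and a 5 CPM filter in 3 libraries, DESeq2 1.42.0, limma-voom (limma 3.58.1), the replicate number as a block, a threshold of 0.01 and each library left out, and, added after the data were seen, counts without rounding. Protein sequences were not used here.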

Additional observations from a re-analysis of the deposited data

How the results depend on the processing

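Of 702 log2 fold changes of members under the alternatives, 614 kept their direction and side of the threshold, 66 fell short of it, 14 newly passed it and 8 changed sign, and no called member changed sign. With any 1 library left out, the members called higher numbered 9 to 20 and lower 2 to 6, and all genes called higher 1010 to 2452 and lower 1222 to 2590. With scaling by totals alone 2 members were lower. An adjusted p under 0.01 left 9 members higher and 1 lower, and 902 genes higher and 1067 lower. Replicate numbers were not treated as pairs: deviations of same-numbered libraries correlated at 0.00892, -0.167 and -0.127, and 0 of 6 libraries correlated best with its own number. With the replicate number as a block 13 members were higher and 2 lower, and 1364 genes higher and 1589 lower. Of the sign changes, Casp6 and Diablo were at 0.055 and 0.027 with totals alone. With 1 library left out Casp6 ran from -0.11 to 0.032, Birc2 from -0.015 to 0.050, Diablo from -0.12 to 0.046 and Gsdme from -0.067 to 0.15. The cause of these shifts was not tested. Depth limits Bcl2a1d and Bik, under 6 CPM in each library, and the 9 untested members.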

Other observations

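The 3 controls varied more than the 3 verapamil libraries in most death genes: the coefficient of variation was larger in control for 33 of the 44 tested members, with a median of 4.25% with verapamil and 9.26% in control. Control 2 was the lowest control in 20 members and the highest in 15. Of the 19 members called higher, control 2 was the lowest control in 9, and of the 4 called lower it was the highest in 2, Bcl2l2 and Bok. No such count was made over all genes or for the other controls. These numbers thus cannot be read as a trait of control 2 or of the death genes.

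Summed over all their members, tested or not, the inflammatory caspases were at 122, 127 and 124 CPM with verapamil and 86.4, 74.0 and 98.3 CPM in control. The guardians summed to 816, 847 and 815 CPM with verapamil and 694, 705 and 662 CPM in control. The pore-forming proteins, where Bax rose and Bok fell, summed to 229, 218 and 228 CPM with verapamil and 215, 231 and 206 CPM in control, with overlap. The inhibitor of apoptosis genes also overlapped in sum, at 316, 319 and 303 CPM with verapamil and 351, 275 and 346 CPM in control. No test was run on these sums.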
